A study of Mus musculus with 18 samples.

Results

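A set of 8 mature microRNAs from 7 hairpins was abundant in the hippocampus and low in the cerebellum of young mice: mmu-miR-137-3p, mmu-miR-551b-3p, mmu-miR-139-5p, mmu-miR-139-3p, mmu-miR-222-3p, mmu-miR-221-3p, mmu-miR-3085-3p and mmu-miR-3059-5p. They were picked by name from the 1841 mature miRNAs listed in the deposited tables. The choice rested on a higher level in CPM (the reads of a miRNA scaled to the same total of miRNA reads in each library) in WT hippocampus than in WT cerebellum, with no stated fold threshold, and miR-221-3p was added as the genomic neighbour of miR-222-3p. The WT tissue difference is therefore given below as a description without a test.

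Small RNAs were sequenced from 3 mice per group in 6 groups: CyrKO hippocampus, WT hippocampus, CyrKOCdr1as671 cerebellum, Cdr1as671 cerebellum, CyrKO cerebellum and WT cerebellum. CyrKO mice lack Cyrano, a long noncoding RNA with a site that directs the decay of miR-7. Cdr1as671 mice carry a deletion of 18 nt at the miR-671 site of Cdr1as, a circular RNA with many miR-7 sites, and the double mutant CyrKOCdr1as671 carries both changes. All mice were males of 1 month on the C57BL/6J strain, the mutations are germline changes present in every cell type, and the labels do not say whether a hippocampus and a cerebellum library with the same number came from 1 mouse. The tables count mature miRNAs, so the Cyrano and Cdr1as transcripts themselves were not analysed here. The RNA came from whole tissue, in which more cells of a type and more miRNA per cell cannot be told apart.

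The libraries held 8591172 to 15305829 miRNA reads each, at which 1 read was worth 0.0653 to 0.116 CPM, and their RNA integrity numbers were 8.5 to 9.5. Markers of neurons were high in both tissues: miR-124-3p, miR-9-5p, miR-128-3p, miR-138-5p and miR-129-5p together held 265166 to 295500 CPM in the hippocampus libraries and 311065 to 374800 CPM in the cerebellum libraries. There were 2 libraries that stood apart in blood content: miR-451a, miR-144-3p and miR-144-5p, made in red blood cells, summed to 783 and 603 CPM in Cdr1as671 cerebellum libraries 1 and 2, against 5405 to 32949 CPM in the other 10 cerebellum libraries.

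A mature miRNA guides an Argonaute protein to messenger RNAs that pair with its seed, bases 2 to 8 from the 5′ end, and lowers their translation and stability. One hairpin can give 2 mature strands, of which 1 is usually loaded far more often. miR-137 is a brain-rich miRNA studied in neuronal maturation and at synapses. miR-221 and miR-222 come from 1 cluster on the X chromosome and are best known for repressing the cell-cycle inhibitor Cdkn1b and the receptor Kit, and miR-139 is processed from an intron of the phosphodiesterase gene Pde2a.

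The mature sequences are shown because the seed decides which messenger RNAs a miRNA can pair with, and because the members turned out to share almost no seeds. They are RefSeq entries on GRCm38.p6, with the seed in capitals:
miR-137-3p: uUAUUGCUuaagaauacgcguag
miR-551b-3p: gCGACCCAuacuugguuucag
miR-139-5p: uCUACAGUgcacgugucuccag
miR-139-3p: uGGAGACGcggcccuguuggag
miR-222-3p: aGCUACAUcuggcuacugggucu
miR-221-3p: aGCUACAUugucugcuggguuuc
miR-3085-3p: uCUGGCUGcuauggcccccuc
miR-3059-5p: uUUCCUCUcugccccauagggu

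Only miR-221-3p and miR-222-3p had a seed in common, GCUACAU. Their first 8 bases were identical, and 11 of their 23 positions matched in an alignment without gaps, a count that leaves out matches offset by a base. Each of the other 6 members had a seed of its own. Other mouse miRNAs with a member's seed were nearly absent: miR-1928, with the seed of miR-221-3p and miR-222-3p, had 0 reads in all 18 libraries, and miR-5616-5p, with that of miR-3059-5p, had at most 2 reads in a library. miR-3064-5p, with the seed of miR-3085-3p, ran from 0.295 to 2.09 CPM in the 18 libraries and did not show a tissue difference of the kind seen below: it averaged 1.04 CPM in CyrKO hippocampus and 0.802 CPM in CyrKO cerebellum.

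The hairpins lay on 5 chromosomes, in the GRCm38 annotation. Mir137 was at chr3:118433857-118433929 on the plus strand, within an exon of the noncoding transcript Gm26871. Mir551b, on the same chromosome at chr3:29416823-29416920, plus strand, lay in an intron of Egfem1. Mir139 was at chr7:101475376-101475443, plus strand, in an intron of Pde2a and of the overlapping gene model Gm45837. Mir3059 lay at chr10:101772692-101772772, plus strand, in an intron of Mgat4c, and Mir3085 at chr19:42280082-42280170, minus strand, outside annotated genes.

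Mir222 at chrX:19146893-19146971 and Mir221 at chrX:19146294-19146388 were on the minus strand of the X chromosome with 504 bases between them and no other gene annotated over either. Both hairpins are printed, 5′ to 3′ with the mature strands of the RefSeq table in capitals, so that the neighbours can be compared along their length:
Mir222: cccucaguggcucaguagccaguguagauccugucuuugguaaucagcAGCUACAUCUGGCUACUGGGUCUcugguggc
Mir221: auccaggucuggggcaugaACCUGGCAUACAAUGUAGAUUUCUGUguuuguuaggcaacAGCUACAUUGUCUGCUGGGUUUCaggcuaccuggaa

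The 8 members together took 3.03% ± 0.13 of all miRNA reads in CyrKO hippocampus and 3.07% ± 0.03 in WT hippocampus (SD, n = 3 each). In the cerebellum they took 0.249% ± 0.002 in CyrKOCdr1as671, 0.275% ± 0.012 in Cdr1as671, 0.274% ± 0.003 in CyrKO and 0.286% ± 0.003 in WT mice. Within the hippocampus the members spanned a wide range of abundance: miR-137-3p was the most abundant, at 10193 ± 281 CPM in CyrKO and 10596 ± 295 CPM in WT mice, and miR-139-3p the least, at 147 ± 8.20 CPM in CyrKO and 137 ± 9.36 CPM in WT mice.

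**Figure D1:**
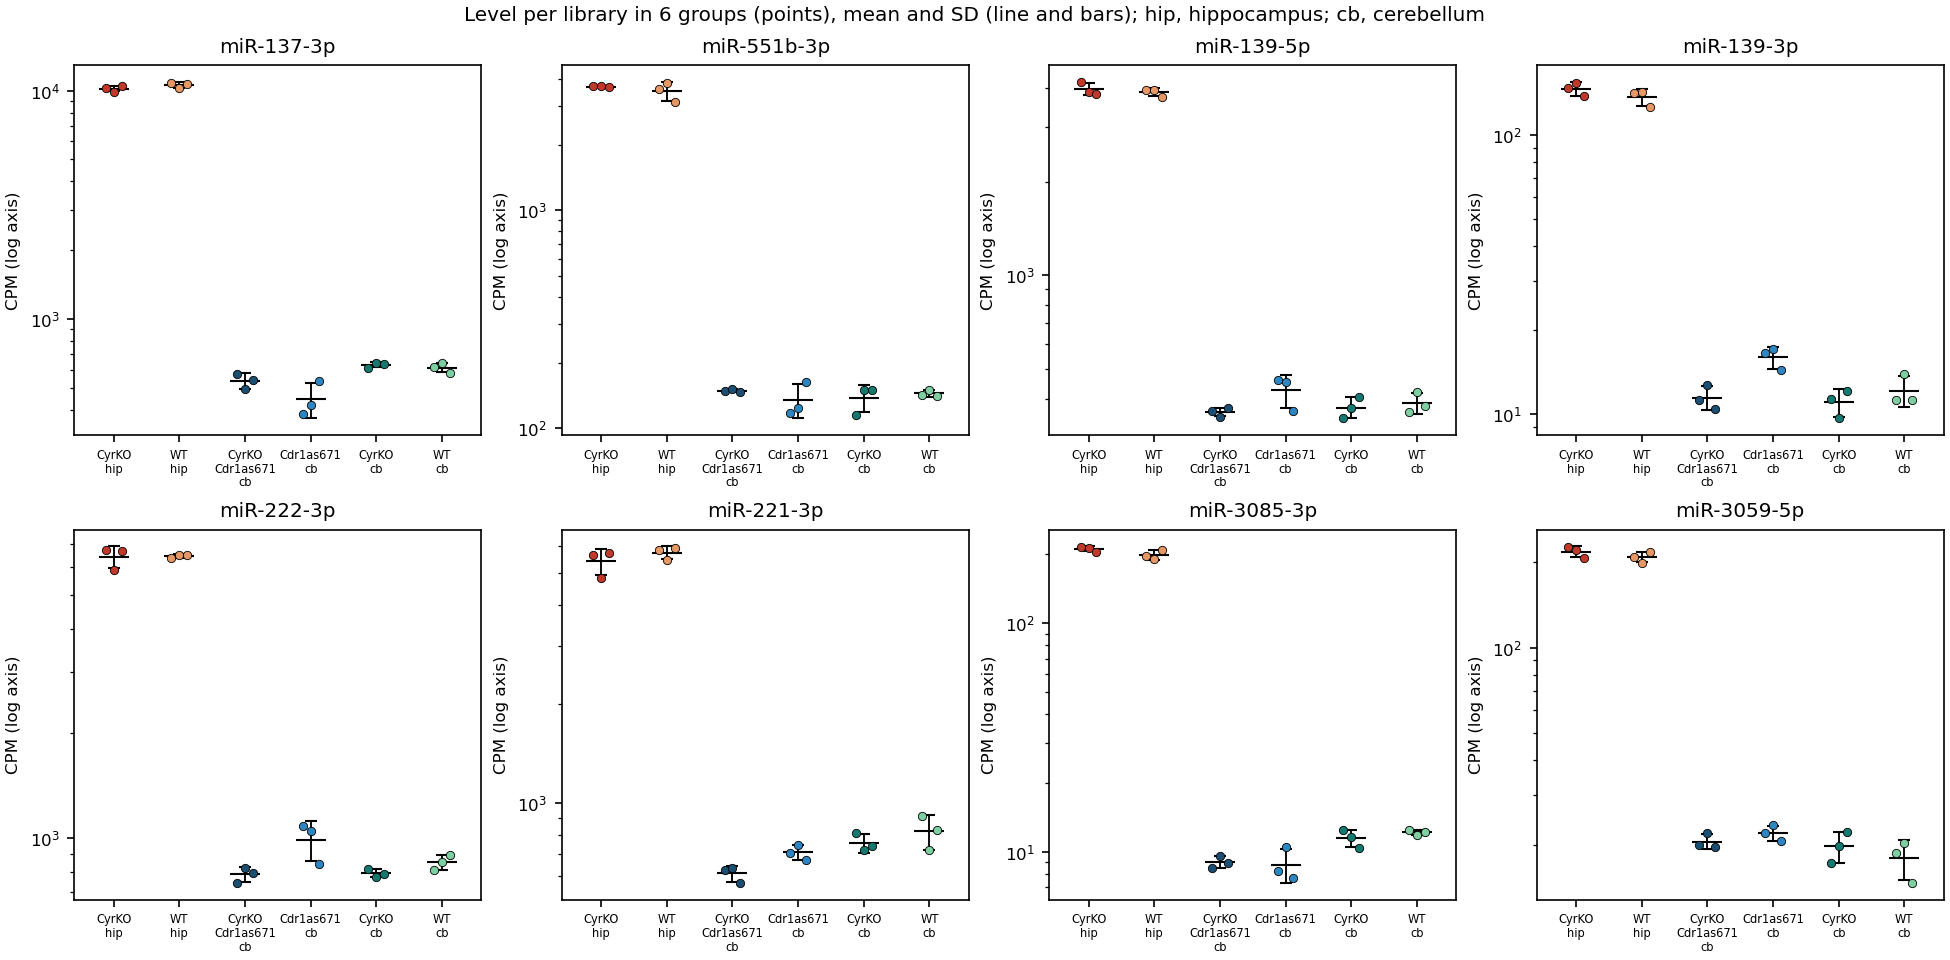
Level of each of the 8 members in CPM (log axis) in every library (points) of the 6 groups, with the group mean and SD; hip is hippocampus and cb is cerebellum. For every member all 6 hippocampus libraries sit above all 12 cerebellum libraries, while genotypes within a tissue lie close together.

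In WT mice, the libraries used for the choice, miR-551b-3p showed the steepest gradient of the 8 members. It had 3592, 3836 and 3131 CPM in the hippocampus and 142, 150 and 141 CPM in the cerebellum, a ratio of means of 24.4. miR-137-3p was 17.3-fold, miR-3085-3p 16.3-fold, miR-3059-5p 11.7-fold, miR-139-3p 11.3-fold and miR-139-5p 10.02-fold higher in the hippocampus. miR-222-3p at 7.56-fold and miR-221-3p at 6.99-fold had the shallowest gradients of the members. Among the 465 miRNAs with a mean of at least 10 CPM in either WT tissue the members held ranks 6 (miR-551b-3p) to 33 (miR-221-3p). These ranks, and the counts and median that follow, use the ratio with 1 CPM added to each mean. Of these 465 miRNAs, 17 were more than 10-fold and 188 more than 2-fold higher in the hippocampus, 37 were more than 2-fold lower, and the median ratio was 1.64. miR-139-5p, at rank 18, was not among the 17. The hippocampal tilt of CPM was thus general, and the members lay at its steep end by choice.

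The CyrKO libraries, which the choice did not use, showed the same gradient and allowed a test. All 8 members were higher in CyrKO hippocampus than in CyrKO cerebellum by edgeR's quasi-likelihood test (a count model fitted over all 730 miRNAs that passed the filter on low counts, with libraries scaled by TMM), at a Benjamini-Hochberg adjusted p under 0.05. Of all 730 miRNAs tested, 39.6% were called higher and 73.4% were called in either direction, so a call alone did not set the members apart. All 8 were also higher with no overlap of libraries, as were 59% of all 730. In size, the members had a median log2 fold change of 3.03 and a range of 2.27 to 4.18, against a median of 0.10 over all 730 miRNAs, and ranked 21 to 62 by log2 fold change. All 8 had passed the filter.

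miR-137-3p had 10243, 9891 and 10447 CPM in the CyrKO hippocampus libraries and 613, 645 and 634 CPM in the CyrKO cerebellum libraries. The groups were far apart, and the log2 fold change was 3.45 (SE 0.09, adjusted p = 4.42e-11). miR-551b-3p had 3701, 3704 and 3691 CPM in CyrKO hippocampus, against 115, 149 and 150 CPM in CyrKO cerebellum. The 3 hippocampus libraries hardly differed for miR-551b-3p, and its log2 fold change of 4.18 (SE 0.12) was the largest of the members, with an adjusted p of 1.34e-10.

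The strands of the Mir139 hairpin differed from each other in abundance and little in gradient. miR-139-5p had 4185, 3898 and 3844 CPM in CyrKO hippocampus and 346, 373 and 405 CPM in CyrKO cerebellum, a log2 fold change of 2.84 (SE 0.08). miR-139-3p, the rarer strand, had 148, 154 and 138 CPM in CyrKO hippocampus and 11.4, 9.67 and 12.1 CPM in CyrKO cerebellum, a log2 fold change of 3.17 (SE 0.11). No library of 1 tissue reached into the range of the other for either strand.

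The X-linked pair had the smallest tissue differences of the 8. miR-222-3p had 6722, 5886 and 6658 CPM in CyrKO hippocampus and 816, 775 and 792 CPM in CyrKO cerebellum, a log2 fold change of 2.45 (SE 0.09). miR-221-3p, the member not chosen by its level, had 5658, 4825 and 5727 CPM in CyrKO hippocampus and 814, 720 and 741 CPM in CyrKO cerebellum, a log2 fold change of 2.27 (SE 0.10, adjusted p = 3.68e-09). Both had their lowest hippocampal value in CyrKO library 2, and for miR-221-3p that value was still 5.93-fold above the highest cerebellar one.

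The remaining 2 members were less abundant. miR-3085-3p had 215, 214 and 206 CPM in CyrKO hippocampus, against 12.5, 11.6 and 10.4 CPM in CyrKO cerebellum, a log2 fold change of 3.63 (SE 0.11). miR-3059-5p had 226, 221 and 208 CPM in CyrKO hippocampus, against 17.3, 19.9 and 22.2 CPM in CyrKO cerebellum, a log2 fold change of 2.89 (SE 0.10). The counts behind these CyrKO cerebellum values were 117 to 177 reads per library for miR-3085-3p and 176 to 305 for miR-3059-5p, well above single reads.

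These fold changes depend on how the tissues are scaled to each other. Without TMM, on library totals alone, all of them were larger, at 2.83 to 4.74, because that scaling moved all 730 miRNAs up by a median of 0.57 on the log2 scale. The tissues also differed in other cell types: in the same CyrKO comparison 7 of 8 choroid plexus and cilia miRNAs were higher (median log2 fold change 2.47), 3 of 3 erythroid and 4 of 4 immune miRNAs were lower (medians -3.46 and -0.80), 1 of 6 vessel miRNAs was higher (median 0.16), and 0 of 4 oligodendrocyte miRNAs was called (median 0.10). Of 5 neuronal miRNAs 1 was higher and 3 were lower, with a median of -0.75. No listed marker was at 0 in any group. The summed choroid plexus and cilia markers ran from 5805 to 16755 CPM in the 3 CyrKO hippocampus libraries and from 8537 to 10469 CPM in the 3 CyrKO cerebellum libraries, and the part of any of these cell types in the members' difference was not tested.

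**Figure D2:**
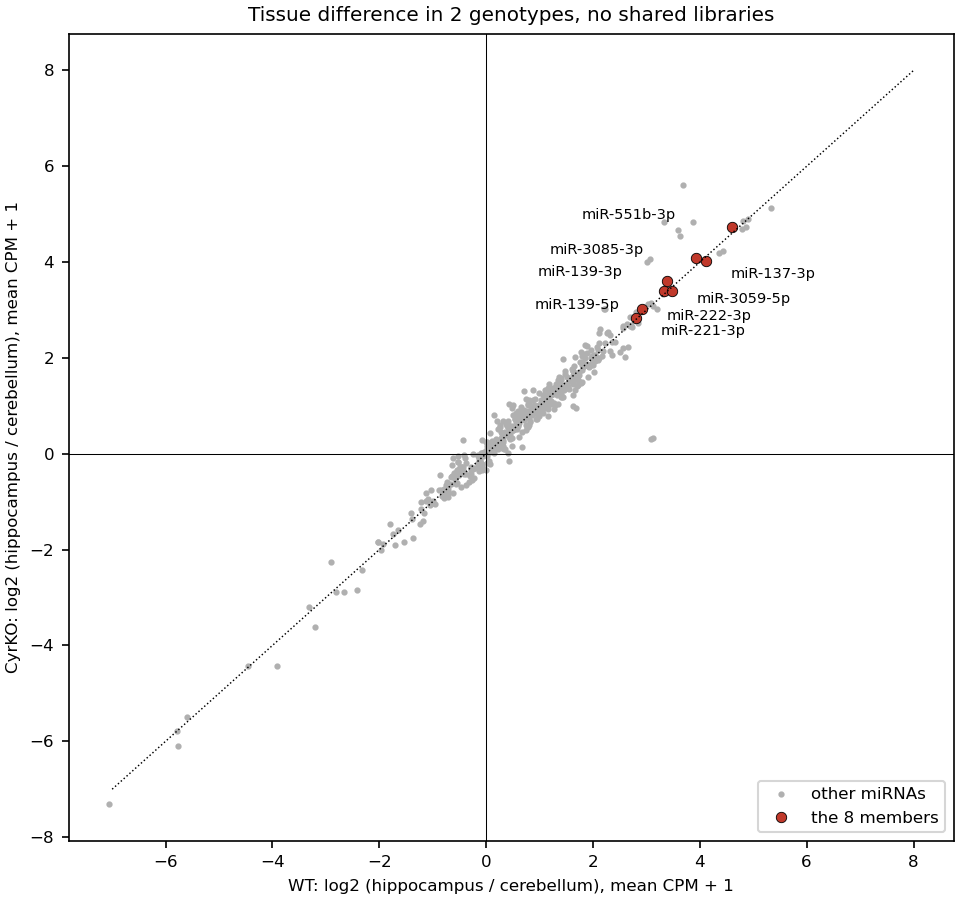
Log2 ratio of hippocampus to cerebellum (mean CPM + 1) in CyrKO mice (vertical axis) against that in WT mice (horizontal axis) for 469 miRNAs of at least 10 CPM in 1 or more of these 4 groups; the dotted line marks equal ratios. The 8 members (red) lie near the line in the upper right, between miR-221-3p at the lower end and miR-551b-3p at the upper end.

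The other strands of these hairpins, which the choice did not use, followed their partners. The 6 listed (miR-137-5p, miR-551b-5p, miR-222-5p, miR-221-5p, miR-3085-5p and miR-3059-3p) were all called higher in CyrKO hippocampus than in CyrKO cerebellum. miR-221-5p averaged 91.3 ± 5.90 CPM in CyrKO hippocampus and 12.1 ± 1.08 CPM in CyrKO cerebellum (SD, n = 3 each), a log2 fold change of 2.35 (SE 0.12), close to the 2.27 of miR-221-3p. miR-137-5p averaged 38.3 ± 3.05 CPM in CyrKO hippocampus and 2.89 ± 0.58 CPM in CyrKO cerebellum, a log2 fold change of 3.18 (SE 0.16). miR-551b-5p, miR-3085-5p and miR-3059-3p had at most 7 reads in a CyrKO cerebellum library, so they entered the fit through the hippocampus and a call was then bound to follow. Both strands of a hairpin share 1 precursor and are not independent members.

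Strand preference was strong for every hairpin. In CyrKO hippocampus 267 ± 21.7 reads of miR-137-3p, 490 ± 36.2 of miR-551b-3p, 728 ± 41.4 of miR-222-3p and 59.2 ± 5.24 of miR-221-3p were counted per read of the other strand. For miR-3059-5p there were 116 ± 44.8 and for miR-3085-3p 23.0 ± 1.94. The Mir139 hairpin, the one with both strands among the members, gave 27.1 ± 1.65 reads of miR-139-5p per read of miR-139-3p in CyrKO hippocampus and 34.0 ± 4.15 in CyrKO cerebellum. The Mir139 ratio did not overlap between the tissues in CyrKO mice (log2 difference -0.32, exact two-sided permutation p = 0.1, adjusted p = 0.25 over 10 ratio tests), and 0.1 is the smallest p that 3 against 3 libraries allow.

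The order of the group means was the same in outline for each member, with both hippocampus groups first and the 4 cerebellum groups after them. CyrKO and WT hippocampus overlapped for all 8 members. In the cerebellum most neighbouring groups overlapped, and the separations from WT are given below beside their share over all miRNAs.

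Loss of Cyrano left no member past the threshold in either tissue. These comparisons, and those below, use the WT libraries that also served the choice of members. In CyrKO against WT hippocampus the log2 fold changes of the members ran from -0.11 (miR-221-3p) to 0.08 (miR-139-3p), with standard errors of 0.06 to 0.08 and a member median of 0.03 against 0.00 over all 702 miRNAs tested, where 0.57% were called by edgeR. In CyrKO against WT cerebellum they ran from -0.14 (miR-139-3p) to 0.15 (miR-3059-5p), with standard errors of 0.08 to 0.15 and a member median of -0.07 against -0.01 over all 668 miRNAs, where 0.898% were called. The count at an unadjusted p under 0.05 was also 0 of 8 members in both tissues, against 3.85% of all miRNAs in the hippocampus and 2.4% in the cerebellum, and DESeq2 called 0 in both. The most abundant member illustrates the spread: miR-137-3p had 10243, 9891 and 10447 CPM in CyrKO hippocampus and 10814, 10261 and 10713 CPM in WT hippocampus, groups that overlapped. For a difference of the CyrKO effect between the tissues, the lowest adjusted p of a member was 0.968 by edgeR. That contrast contains the WT tissue difference by which the members were chosen, so no conclusion is drawn from it.

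In Cdr1as671 against WT cerebellum no member passed the threshold by edgeR, where 2.26% of 665 miRNAs were called. The median absolute log2 fold change over all 665 miRNAs was 0.20, against 0.10 over all 668 in CyrKO against WT cerebellum. At an unadjusted p under 0.05, which 20.6% of all 665 miRNAs reached, there were 3 of 8 members, miR-137-3p, miR-3085-3p and miR-139-3p. miR-137-3p had 382, 420 and 533 CPM in Cdr1as671 cerebellum, against 615, 640 and 582 CPM in WT cerebellum. All 3 mutant libraries were below all 3 WT libraries, and the log2 fold change was -0.50 (SE 0.13, adjusted p = 0.101).

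miR-3085-3p had 8.27, 10.5 and 7.67 CPM in Cdr1as671 cerebellum, against 12.4, 11.9 and 12.2 CPM in WT cerebellum, with a log2 fold change of -0.51 (SE 0.15, adjusted p = 0.105). miR-139-3p lay the other way, at 16.5, 17.1 and 14.4 CPM in Cdr1as671 cerebellum, against 11.3, 14.01 and 11.2 CPM in WT cerebellum, with a log2 fold change of 0.36 (SE 0.14, adjusted p = 0.170). The groups did not overlap for either. With miR-3059-5p, which was also higher in every mutant library, 2 members were higher and 2 lower without overlap, where 12.9% and 12% of all 665 miRNAs were.

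The miR-137-3p value rested largely on the 2 Cdr1as671 libraries low in erythroid miRNAs. With them left out, an alternative added after seeing the data that leaves 1 library in that group and assumes it to vary like the others, its log2 fold change was -0.14 (adjusted p = 0.693), while that of miR-3085-3p was -0.61 (adjusted p = 0.308). The erythroid markers summed to 603 to 16205 CPM in Cdr1as671 and 6326 to 32949 CPM in WT cerebellum, and the immune markers to 195 to 663 CPM in Cdr1as671 and 377 to 857 CPM in WT cerebellum. Their part in the members' values was not tested. The call on miR-137-3p also turned with the method: it passed in the authors' deposited table, at a log2 fold change of -0.48 and an adjusted p of 0.0455.

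**Figure D3:**
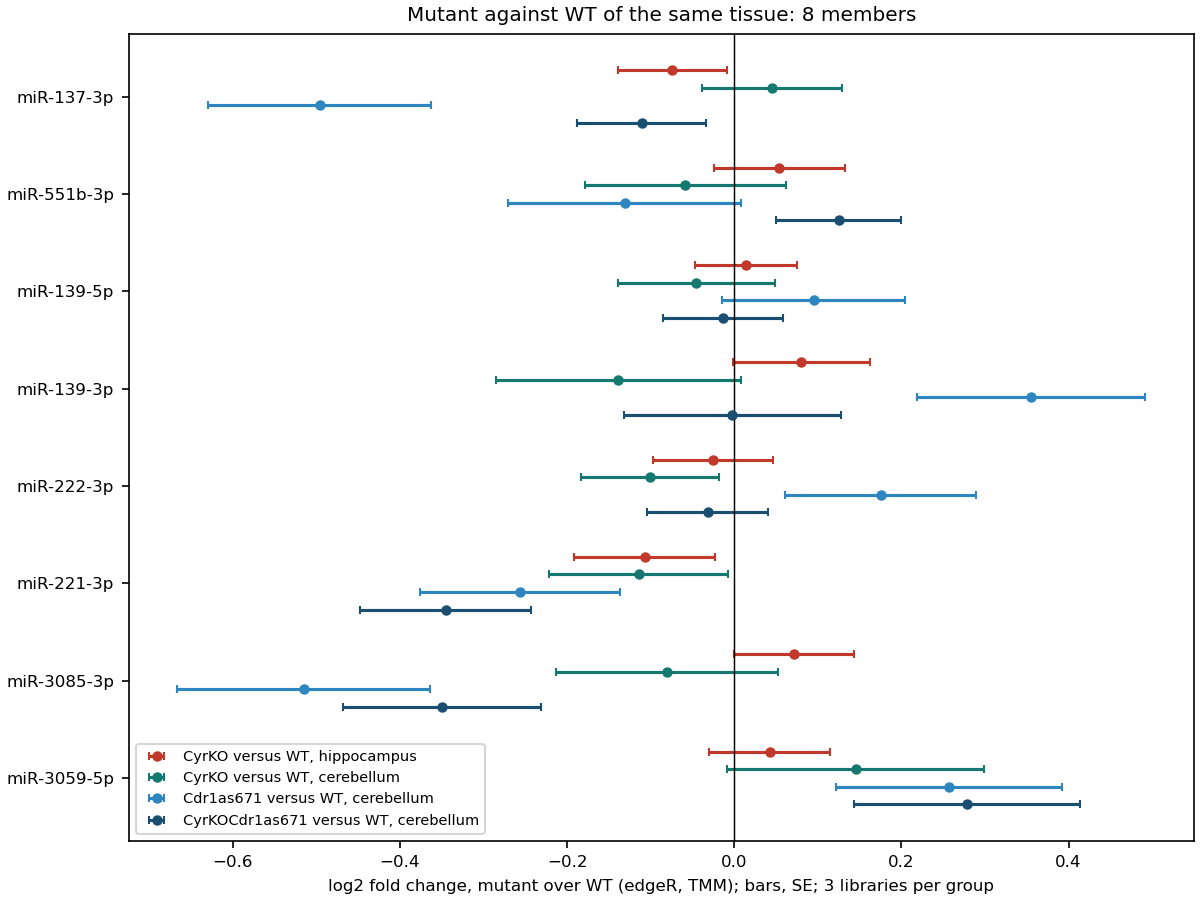
Log2 fold change of each member, mutant over WT of the same tissue, with its standard error (edgeR, TMM, 3 libraries per group). The CyrKO values lie within 0.15 of 0 in both tissues, and the values farthest below 0 are those of miR-137-3p and miR-3085-3p in Cdr1as671 cerebellum.

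In CyrKOCdr1as671 against WT cerebellum again no member passed by edgeR, where 2.57% of 662 miRNAs were called. The number of calls over all miRNAs was 17, and 35 with the replicate number as a block, again with 0 members among them. miR-221-3p had 628, 637 and 574 CPM in CyrKOCdr1as671 cerebellum, against 915, 720 and 831 CPM in WT cerebellum, a log2 fold change of -0.35 (SE 0.10, adjusted p = 0.115). miR-3085-3p had 8.54, 9.60 and 8.96 CPM in CyrKOCdr1as671 cerebellum and the same WT values as above, a log2 fold change of -0.35 (SE 0.12, adjusted p = 0.156).

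Both were lower in every double mutant library than in any WT library, as was miR-137-3p at 576, 493 and 539 CPM in CyrKOCdr1as671 cerebellum, whose log2 fold change was -0.11 (SE 0.08, adjusted p = 0.419). Such a separation downward was found for 3 of 8 members and for 21.8% of all 662 miRNAs, and an unadjusted p under 0.05 for 2 members, miR-221-3p and miR-3085-3p, and 19.2% of all. The other 5 members had log2 fold changes of -0.03 to 0.28. In the authors' deposited table miR-221-3p passed, at a log2 fold change of -0.34 and an adjusted p of 0.0423, and it passed here when WT library 2 was left out, at -0.43 (adjusted p = 0.0110).

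The log2 fold changes of miR-221-3p, miR-3085-3p and miR-137-3p were below 0 in both genotypes with the Cdr1as deletion, though miR-221-3p overlapped WT in Cdr1as671. A comparison was therefore added after these values were seen, so its p-values are no independent evidence. It averages Cdr1as671 over WT and CyrKOCdr1as671 over CyrKO in 1 edgeR fit of the 12 cerebellum libraries. In it 3 members fell, with log2 fold changes of -0.41 for miR-3085-3p (SE 0.09, adjusted p = 0.00832), -0.34 for miR-137-3p (SE 0.08, adjusted p = 0.0121) and -0.26 for miR-221-3p (SE 0.07, adjusted p = 0.0224). Calls were common in this comparison, with 17.2% of 688 miRNAs called and 10.2% called lower, and the member median was 0.03 against -0.01 over all. Single cell-type markers were called in the same fit. Among 4 immune miRNAs 1 was lower, miR-223-3p (log2 fold change -0.37, adjusted p = 0.0235), and the list median was -0.48. Among 6 vessel miRNAs 1 was higher, miR-143-3p (0.45, adjusted p = 0.000924), but the median was -0.03. Among 4 oligodendrocyte miRNAs 1 was higher, miR-219a-2-3p (0.32, adjusted p = 0.0255), with a median of 0.21. Among 5 neuronal miRNAs 1 was higher, miR-129-5p (0.33, adjusted p = 0.0164), with a median of 0.05. The 3 erythroid miRNAs had a median of -1.24 with 0 called, and 0 of 8 choroid plexus and cilia miRNAs were called (median -0.14). The part of these cell types in the members' values was not tested.

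Across the 12 libraries miR-3085-3p ran from 7.67 to 10.5 CPM in the 6 libraries with the Cdr1as deletion and from 10.4 to 12.5 CPM in the 6 without it, which overlapped at 1 library of each. miR-137-3p ran from 382 to 576 CPM with the deletion and from 582 to 645 CPM without it, with no overlap. The share of all miRNAs separated in this way is not given here, so the separation does not set miR-137-3p apart. miR-221-3p ran from 574 to 748 CPM with the deletion and from 720 to 915 CPM without it, and overlapped. When the 2 Cdr1as671 libraries low in erythroid miRNAs were left out, miR-3085-3p still passed (log2 fold change -0.44, adjusted p = 0.0366), and miR-137-3p (-0.15, adjusted p = 0.210) and miR-221-3p (-0.23, adjusted p = 0.114) did not. The number of members called was 1 when WT library 1, CyrKO library 3, Cdr1as671 library 1 or 2, or CyrKOCdr1as671 library 2 or 3 was left out, and in each of these it was miR-3085-3p. Over the 12 fits without 1 library each, the call was lost in 0 for miR-3085-3p, in 7 for miR-137-3p and in 8 for miR-221-3p.

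**Figure D4:**
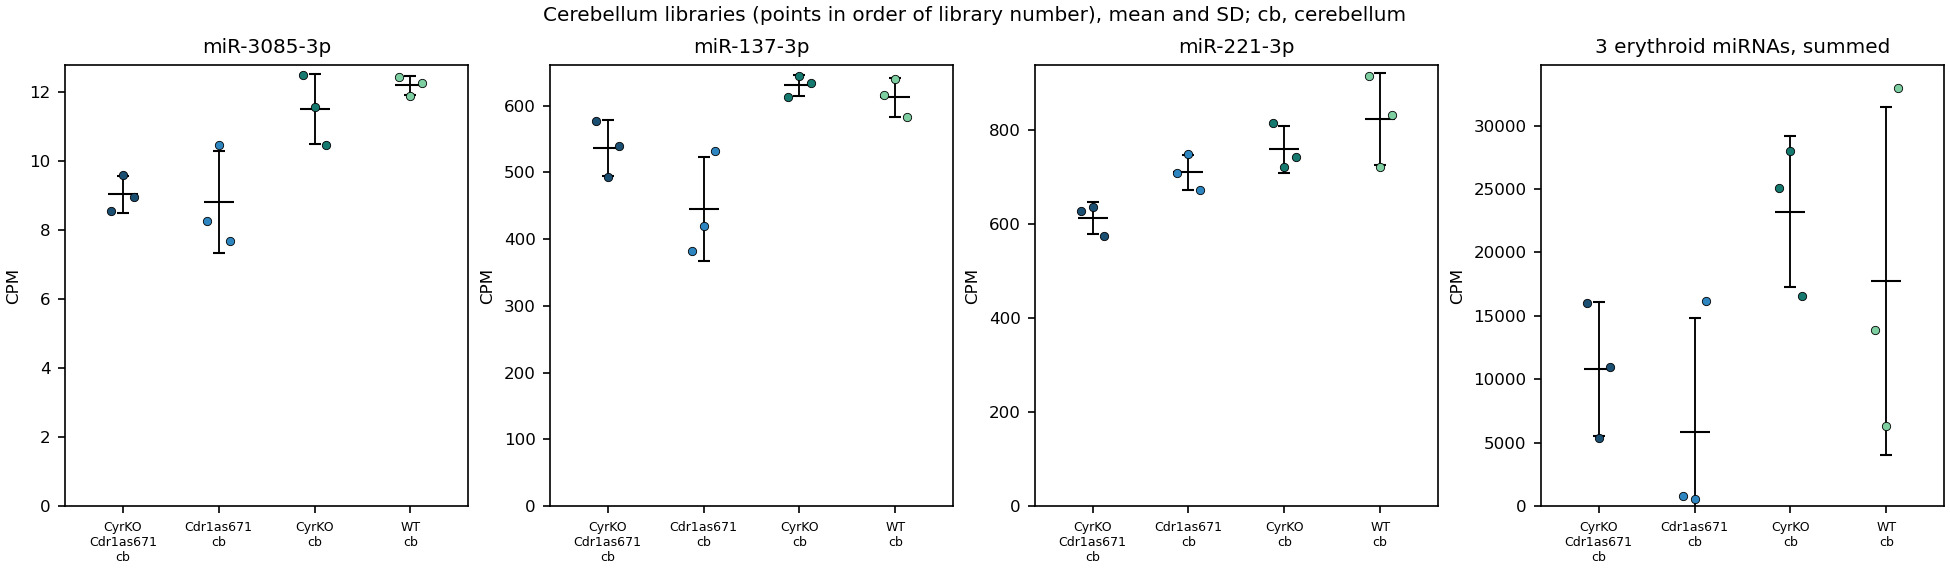
CPM of miR-3085-3p, miR-137-3p and miR-221-3p and the sum of the 3 erythroid miRNAs in each cerebellum library (points, in order of library number within a group), with group mean and SD; all axes start at 0. miR-137-3p is lowest in Cdr1as671 libraries 1 and 2, at 382 and 420 CPM, the libraries with the lowest erythroid sums.

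For the X-linked neighbours the estimates in Cdr1as671 mice lay on opposite sides of 0, and neither passed. In Cdr1as671 against WT cerebellum miR-222-3p had 1083, 1049 and 844 CPM in the mutant and 810, 855 and 896 CPM in WT mice, a log2 fold change of 0.18 (SE 0.11, adjusted p = 0.420). miR-221-3p had 708, 748 and 672 CPM in Cdr1as671 and 915, 720 and 831 CPM in WT cerebellum, a log2 fold change of -0.26 (SE 0.12, adjusted p = 0.247). Both overlapped between the groups. Their ratio within a library does not depend on scaling.

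The log2 ratio of miR-222-3p to miR-221-3p reads was 0.61, 0.49 and 0.33 in Cdr1as671 cerebellum, against -0.18, 0.25 and 0.11 in WT cerebellum. It was 0.25, 0.37 and 0.47 in CyrKOCdr1as671 cerebellum, against 0.00, 0.11 and 0.10 in CyrKO cerebellum. In reads, 1.40 ± 0.14 of miR-222-3p were counted per read of miR-221-3p in Cdr1as671, 1.29 ± 0.10 in CyrKOCdr1as671, 1.05 ± 0.04 in CyrKO and 1.05 ± 0.15 in WT cerebellum (SD, n = 3 each). The ratio was thus higher in every library with the deletion than in its counterpart group of the same Cyrano genotype. Within Cdr1as671 it was lowest, at 0.33, in library 3, the one not low in erythroid miRNAs. The part of blood content in the ratio was not tested.

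Against WT, the ratio differed by 0.42 in Cdr1as671 (exact two-sided permutation p = 0.1, adjusted p = 0.25 over 10 ratio tests) and by 0.30 in CyrKOCdr1as671 (p = 0.2, adjusted p = 0.4), and neither test could go below 0.1. Over both Cyrano backgrounds, again a test added after the values were seen, the mean difference was 0.36 (exact two-sided permutation test within each background, p = 0.005, the smallest of its 400 relabellings, adjusted p = 0.01 over 2 such tests). The separation already seen in both backgrounds fixed that p at its smallest, so it is no independent evidence. The same added test gave a mean difference of -0.18 for miR-139-5p to miR-139-3p (exact permutation p = 0.045, adjusted p = 0.045). That difference was -0.27 in Cdr1as671 against WT and -0.10 in CyrKOCdr1as671 against CyrKO cerebellum. In CyrKOCdr1as671 against WT it was -0.01, and the groups overlapped. The log2 ratio of miR-139-5p to miR-139-3p ran from 4.66 to 5.15 with the deletion and from 4.91 to 5.27 without it, and overlapped. In the hippocampus the ratio of miR-222-3p to miR-221-3p averaged 0.25 ± 0.03 in CyrKO and 0.17 ± 0.08 in WT mice, and the groups overlapped.

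**Figure D5:**
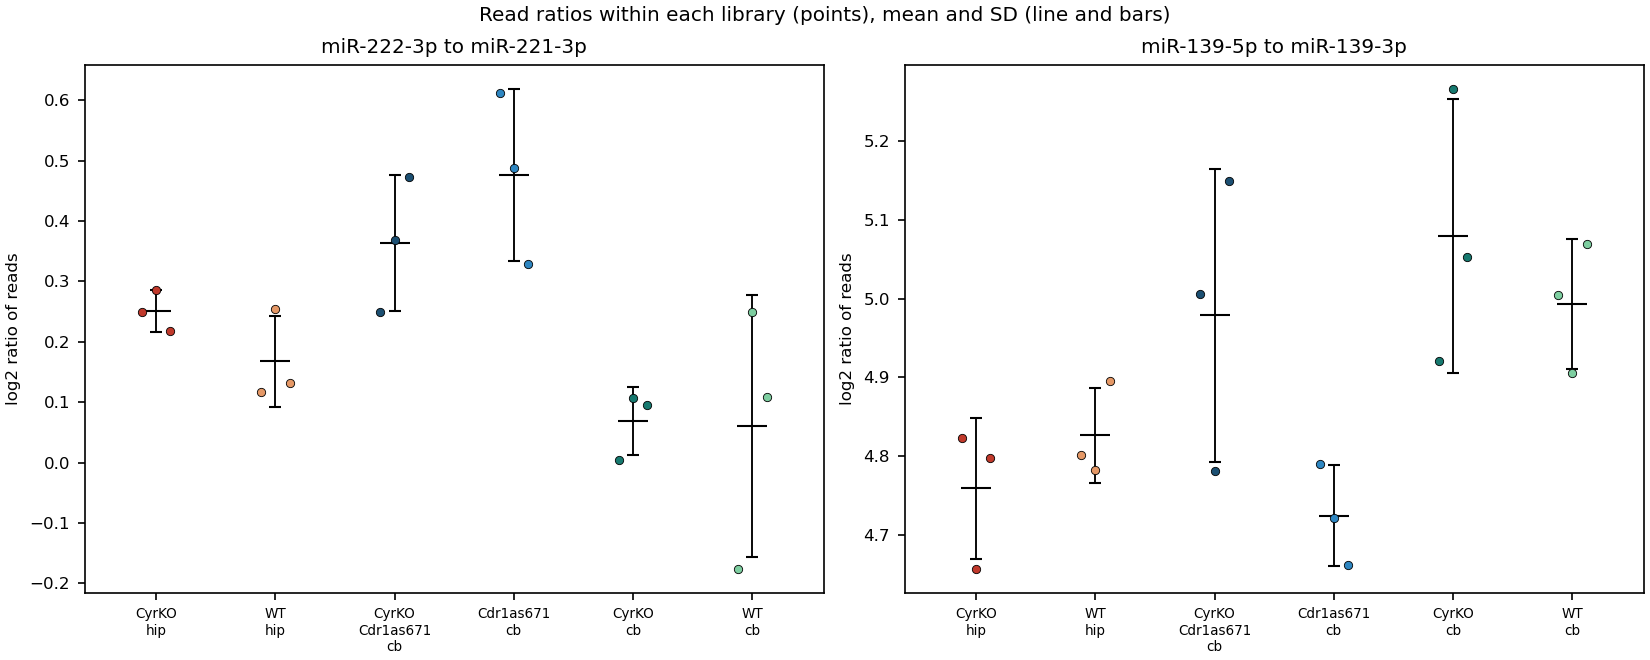
Log2 ratio of reads within each library (points), with group mean and SD, for miR-222-3p to miR-221-3p and for miR-139-5p to miR-139-3p. The ratio of the X-linked pair runs from 0.25 to 0.61 in the 6 cerebellum libraries with the Cdr1as deletion and from -0.18 to 0.25 in the 6 without it.

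The miRNAs whose levels most resembled those of a member were found by Pearson's r of log2(CPM + 1) over the 18 libraries among 441 miRNAs with a mean of at least 10 CPM, as a description. The nearest were miR-7080-3p for miR-551b-3p (r = 0.998), miR-1983 for miR-139-5p (0.998), miR-412-5p for miR-222-3p (0.998) and miR-7a-2-3p for miR-3085-3p (0.996). The nearest to the other 4 members were members themselves: miR-3085-3p for miR-137-3p and for miR-221-3p (both 0.996), miR-139-5p for miR-3059-5p (0.997) and miR-222-3p for miR-139-3p (0.997). miR-222-3p was not among the 3 nearest to miR-221-3p. All of these values rest on the same libraries, in which the step between the tissues is far larger than any other difference. The members other than miR-221-3p were chosen by that step in the WT libraries, so likeness among members is no independent evidence.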

How the data were processed

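Small RNAs of 18 to 32 nt were sequenced in 18 libraries; groups and replicate numbers were read from the labels. Tools in the submitters' processing notes are cutadapt and DESeq2 1.10. The read assignment, miRNA annotation and genome build were not given in the sources used here. In all, 4 tables were deposited by the authors, each of 1 mutant against WT of its tissue. Their counts are whole numbers of reads per mature miRNA, and the WT cerebellum counts, identical in 3 tables, entered once. Per the file headers the tables also hold normalised values, read as signal (count divided by a size factor), a test statistic, read as a score, and the authors' log2 fold changes and p-values; the last 2 served as an alternative.

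The counts were fitted with edgeR 4.0.16 under R 4.3.3 (filterByExpr, minimum count 10 and minimum total 15; TMM; robust quasi-likelihood F-test; Benjamini-Hochberg adjustment over all miRNAs tested, threshold 0.05), 2 groups of 3 libraries per fit. The script was tested on simulated data. DESeq2 1.42.0 and other scalings, filters and designs were alternatives. CPM values use library totals without TMM factors, and SDs are over 3 libraries. Ratios had 0.5 added to each count and were compared by exact two-sided permutation tests. Reads without molecular identifiers are not independent molecules. Replicates were separate mice, and no 2 libraries of a group agreed within sampling noise. In CyrKOCdr1as671 against WT, same-numbered libraries deviated together (r of 0.31 to 0.53 over 662 miRNAs), so the numbers were taken to pair them there, from the data and not from the labels. The main fits and permutation tests carry no pairing even there, and the block was an alternative. Same-numbered libraries also had r above 0 in CyrKO against WT cerebellum (0.06 to 0.40). That range overlapped the -0.39 to 0.24 of differently numbered libraries, and no pairing was taken. Same-numbered libraries in the other comparisons did not all deviate together. The members and the marker lists were chosen with earlier results of these data known; named were all members, the other strands of their hairpins and the 3 most alike miRNAs per member.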

Additional observations from a re-analysis of the deposited data

How the results depend on the processing

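All 8 members stayed called in CyrKO hippocampus over CyrKO cerebellum, and 0 in both CyrKO against WT comparisons, under every alternative run. In Cdr1as671 against WT cerebellum the count of members went from 0 to 1 (miR-137-3p, lower) with no low-count filter (adjusted p = 0.00433), the replicate block (0.0222) and the authors' deposited DESeq2 table, to 2 (with miR-3085-3p) in a fit of all 12 cerebellum libraries, and ran from 0 to 2 without 1 library each. The 2 without Cdr1as671 library 3 were miR-137-3p and miR-551b-3p, the second at a log2 fold change of -0.32 (adjusted p = 0.0473). In CyrKOCdr1as671 against WT it went from 0 to 1 (miR-221-3p, lower) with library totals alone (0.0224), no filter (0.00173), DESeq2 (0.0389) and the authors' deposited table, and ran from 0 to 1 without 1 library each. The comparison over both Cyrano backgrounds gave 3 members, 1 without Cdr1as671 libraries 1 and 2, and 1 to 4 without 1 library each. Without the 10 most abundant miRNAs it also gave 3, but miR-221-3p was no longer called (adjusted p = 0.0543) and miR-139-3p was called higher (0.0392). With the replicate block the members called were 8, 0, 0 and 1 in the comparisons before CyrKOCdr1as671 against WT, in the order of the text. Over both Cyrano backgrounds the block gave 3. Outside CyrKOCdr1as671 against WT the replicate numbers were not taken to pair libraries (r of -0.47 to 0.58). Over all miRNAs the calls in Cdr1as671 against WT were 15, but 4 with RLE, 3 without the 10 most abundant miRNAs, 3 at a mean of at least 10 CPM, 53 with no filter, 26 with DESeq2 and in the authors' deposited table, 42 with the block and in the 12-library fit, 1 without its libraries 1 and 2, and 0 to 112 without 1 library each. In CyrKOCdr1as671 against WT they were 17, but 31 with library totals, 61 with no filter, 44 with DESeq2, 43 in the authors' deposited table, 35 with the block and 6 to 58 without 1 library each. Over both backgrounds they were 118, but 52 without Cdr1as671 libraries 1 and 2 and 55 to 161 without 1 library each; without the 10 most abundant miRNAs the split of higher to lower calls was 75 to 51, against 48 to 70. In CyrKO against WT hippocampus they were 4, but 7 without WT library 3. In the CyrKO tissue comparison library totals gave 414 higher and 124 lower calls, against 289 and 247. With TMM the WT log2 ratio of hippocampus to cerebellum was 3.55 for miR-137-3p, 4.05 for miR-551b-3p, 2.76 for miR-139-5p, 2.93 for miR-139-3p, 2.36 for miR-222-3p, 2.25 for miR-221-3p, 3.47 for miR-3085-3p and 2.98 for miR-3059-5p, against 4.11, 4.61, 3.33, 3.49, 2.92, 2.81, 4.03 and 3.54 on CPM. Log2 fold changes that changed sign were uncalled: without Cdr1as671 libraries 1 and 2, 0.23 for miR-551b-3p (-0.13 with them) and -0.0234 for miR-139-5p; in the double mutant without the 10 most abundant miRNAs, 0.0004 for miR-139-5p and 0.0113 for miR-139-3p. Without 1 library each, values crossed 0 for miR-551b-3p (-0.13 to 0.0727), miR-139-5p (-0.0802 to 0.0251) and miR-3085-3p (-0.12 to 0.0145) in CyrKO cerebellum; for miR-551b-3p (-0.0107 to 0.12), miR-139-5p (-0.0034 to 0.0344) and miR-222-3p (-0.0633 to 0.0336) in CyrKO hippocampus; for miR-139-5p (-0.0424 to 0.0499), miR-139-3p (-0.0908 to 0.11) and miR-222-3p (-0.0748 to 0.0221) in the double mutant; and for miR-551b-3p over both backgrounds (-0.0696 to 0.0863). The cause of these changes was not tested. The lowest counts of members were 92 reads of miR-139-3p and 79 of miR-3085-3p in a cerebellum library, and what this depth hides was not tested.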
